A study of Homo sapiens with 6 samples.

Results

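The DNA replication machinery was described through 44 genes that carry out S phase in human cells, out of 63677 genes in the deposited table. The members were taken by symbol as a named list in 10 roles: origin recognition, helicase loading, the MCM2-7 helicase, helicase activation, polymerase alpha with primase, polymerases delta and epsilon, the sliding clamp with its loader, replication protein A, Okazaki fragment maturation and deoxynucleotide synthesis. All 44 had a mean of at least 1 TPM and entered the test. TPM is a transcript abundance corrected for length and given as a share of the library. RFC2 appeared under 2 gene IDs, ENSG00000049541 and ENSG00000261911, with the same values, and was counted once, so 45 gene IDs stand behind the 44 members. Its values in the test are those of 1 ID.

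Total RNA of KMS27, an established line of malignant human plasma cells from multiple myeloma, was sequenced after depletion of ribosomal RNA. One group held 3 libraries of wild type cells and the other 3 libraries of cells with HA-TAZ, that is TAZ (the product of WWTR1) overexpressed with an HA peptide tag. TAZ is a transcriptional coactivator of the Hippo pathway that acts through TEAD factors. All libraries came from the same line. The titles of the wild type samples also carry HA, and the labels give no construct for these cells, no promoter for HA-TAZ, and no statement on clones, separate cultures or harvest times, so p-values measure only the spread between these libraries, which may be technical. The wild type group is called control, and its libraries are called control a, b and c, because their columns carry another name and were assigned to the group by elimination.

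Replication starts when the origin recognition complex, with CDC6 and CDT1, loads the ring-shaped MCM2-7 helicase on DNA in G1. In S phase CDC45 and the GINS complex join the ring and make it active, polymerase alpha with primase lays down primers, and polymerases delta and epsilon extend them while held by the PCNA clamp. Replication protein A covers the exposed single strands, FEN1 and LIG1 join Okazaki fragments, and ribonucleotide reductase with thymidylate synthase and thymidine kinase supplies precursors. Many of these genes are targets of E2F factors and peak together around the start of S phase in cycling cells. In RNA from a whole culture, a change in the share of cells in S phase and a change of RNA per cell cannot be told apart.

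WWTR1 checked the labels, with 293, 306 and 293 TPM in the HA-TAZ libraries against 2.69, 2.22 and 1.69 TPM in the controls. All 10 plasma cell markers examined had a mean of at least 1 TPM, and they did not move one way: on scaled TPM 4 were higher and 2 lower without overlap and 4 overlapped. In the test on scaled TPM SLAMF7 rose (0.95, limma adjusted p = 0.0128) and CD38 fell (−0.61, limma adjusted p = 0.0226). The summed TPM as deposited of the 10 markers, 2825 to 3262 in HA-TAZ against 4308 to 4877 in control libraries, was mostly JCHAIN, with a mean of 2457 TPM in HA-TAZ and 3792 in control libraries. The part of these markers in the replication results was not tested. Markers of T cells, myeloid cells, fibroblasts, epithelium and red cells summed to at most 4.89 TPM per list in any library, and 1 myeloid marker was listed at 0 throughout. The depth of each library is unknown, since TPM carries no read number. Scaled TPM means TPM divided by a median-of-ratios factor of the library. This factor ranged from 0.866 to 0.967 for HA-TAZ and from 1.06 to 1.21 for control libraries. It set the direction of many small differences: the median log2 fold change of all 22651 genes tested was −0.03 with scaled TPM and −0.27 with TPM as deposited. Log2 fold changes below are given as fitted, without subtraction of that median unless stated, and are to be read beside it.

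The replication genes as a group differed little between HA-TAZ and control cells. RFC3, a subunit of the clamp loader, rose, and it was the only member past the threshold of 0.05 on the adjusted p-value (limma, Benjamini-Hochberg over all genes). That is 1 of 44 members, or 2.27%, against 7.29% of all genes tested (4.67% higher and 2.63% lower) and 9.68% of protein-coding genes tested. The other 43 did not pass. At an unadjusted p-value under 0.05 (limma), 14 members were higher and 2 lower, 36.4% of the list against 30.7% of all genes (16.6% higher and 14.1% lower). The libraries of the groups did not overlap for 15 members that were higher and 3 that were lower in HA-TAZ, 40.9% of the list against 38.5% of all genes (20.2% higher and 18.3% lower). Protein-coding genes tested also leaned to higher values, with 31.4% higher and 14% lower without overlap. Over the members the log2 fold change had a median of 0.08, with 27 members above 0 and 17 below, from −0.26 for POLA1 to 0.39 for CDT1. Protein-coding genes had a median of 0.06. The standard error of a member was 0.07 at the median, and the 95% intervals of the 44 differences together spanned −0.54 to 0.67.

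**Figure D1:**
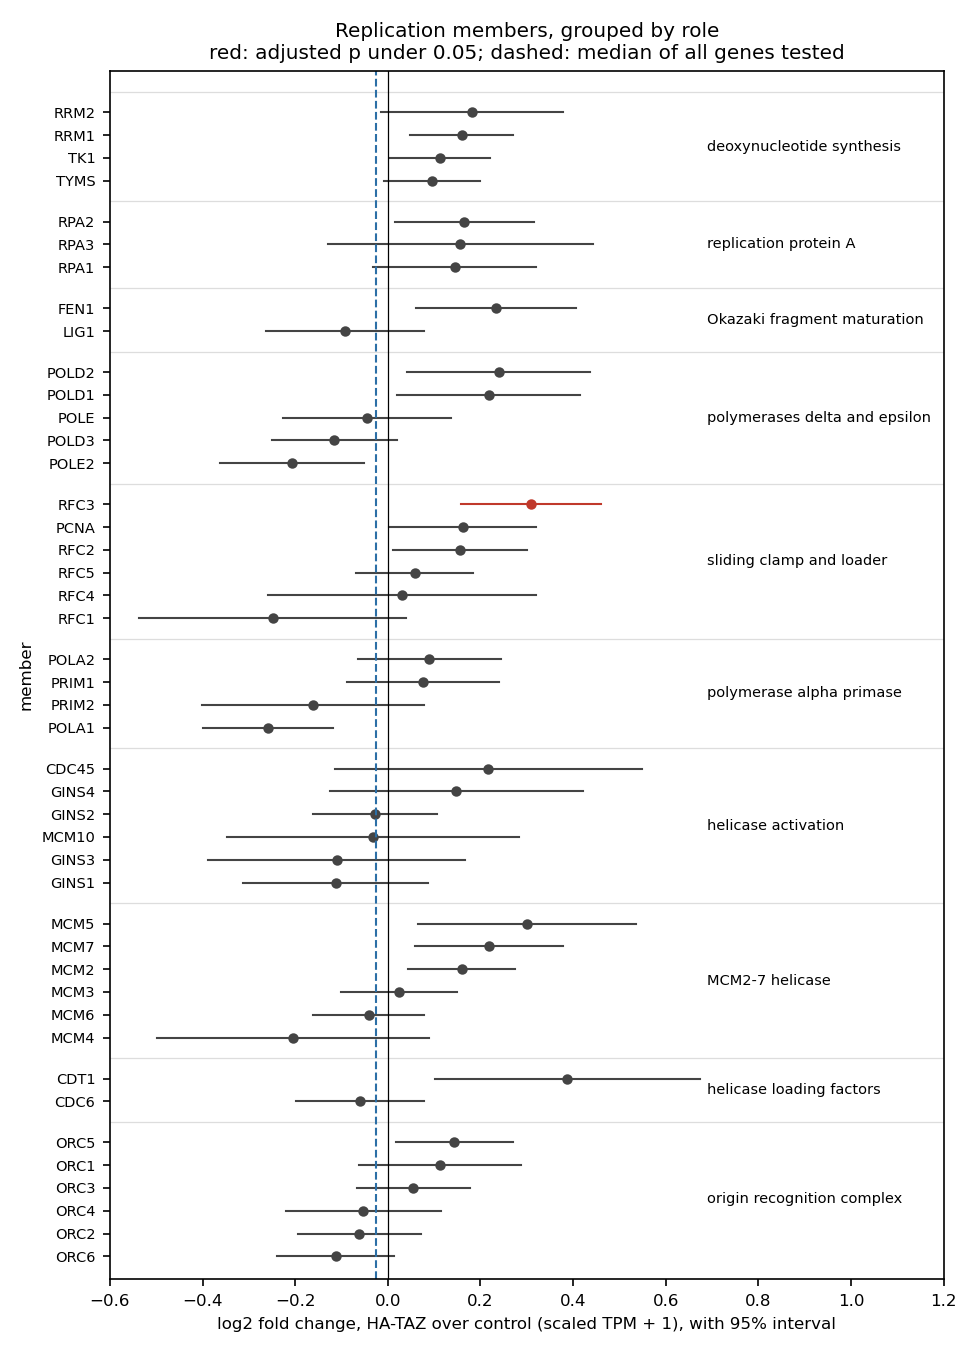
Log2 fold change of each of the 44 members (HA-TAZ over control, scaled TPM plus 1) with its 95% interval from limma, grouped by role. The dashed line is the median of all genes tested (−0.03); RFC3, in red, is the only member with an adjusted p-value under 0.05.

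Under other scalings the members shifted along with all genes. With TPM as deposited the member median was −0.21 beside −0.27 for all genes, and 41 of 44 members were negative. That shift is common to most genes. Read against the median of all genes of each fit, 23 members were above it and 17 below it with scaled TPM, with TPM as deposited and with protein-coding scaling alike, and the remaining 4, MCM3, ORC3, RFC4 and RFC5, lay on different sides. In the fit of TPM as deposited, which tests against 0 and not against that median, 6 members were lower and 0 higher (limma, Benjamini-Hochberg). These were MCM6, ORC6, POLA1, POLE, POLE2 and PRIM2, which is 13.6% of members against 14.7% of all genes (1.15% higher and 13.5% lower). With TPM as deposited HA-TAZ lay below control without overlap for 26 members and above it for 0, where 43.6% and 4.41% of all genes did so. With factors from protein-coding genes only, the member median was 0.01 beside −0.00 for all genes of that fit. There CDT1 and RFC3 were higher and ORC6, POLA1 and POLE2 lower, 11.4% of members against 23.5% of the genes (12.2% higher and 11.3% lower). With protein-coding transcripts only, MCM2 was higher and CDC6, MCM6, ORC4, POLA1 and PRIM2 lower, 13.6% of members against 18.9% of the genes (9.47% higher and 9.41% lower). The member median lay 0.11, 0.06 and 0.01 above the median of all genes with scaled TPM, with TPM as deposited and with protein-coding scaling. Its distance from the other genes was thus small under each.

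**Figure D2:**
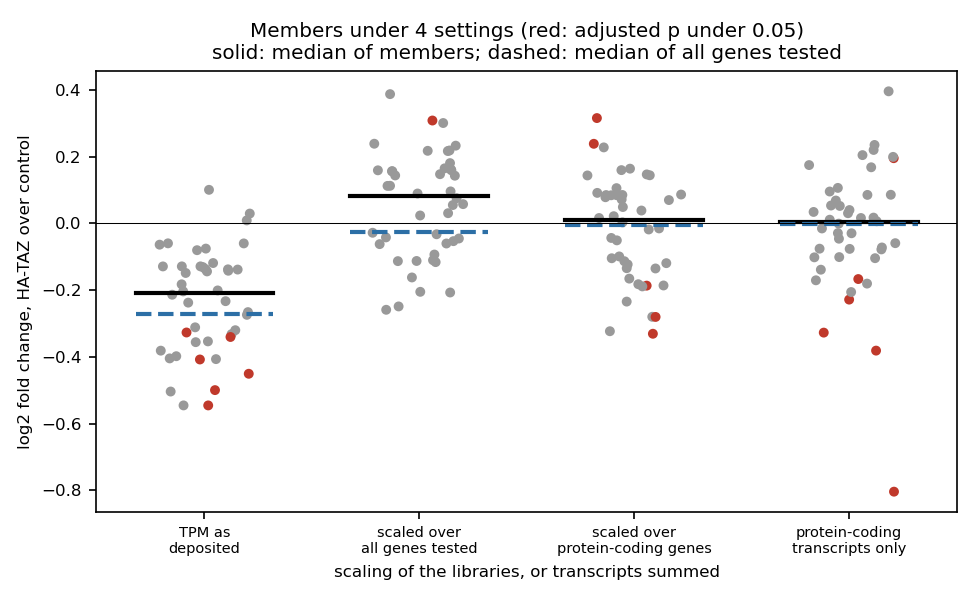
Log2 fold changes of the 44 members (points) under 4 settings, with the member median (solid bar) and the median of all genes tested (dashed bar). The member median moved from −0.21 with TPM as deposited to 0.08 with scaled TPM and stayed within 0.11 of the median of all genes.

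Promoters show what the members share in sequence. RefSeq promoters of GRCh38.p14, from 250 bases before to 50 bases after the start of a gene, were in the table for 38 of the 44 members; MCM4, MCM5, GINS4, POLD3, RPA2 and RPA3 were not matched. E2F-type letters were searched as TTTCCCGC, TTTCGCGC, TTTGCCGC and TTTGGCGC on both strands. They were found in 18 of 38 members (47.4%), against 3.99% of the 27305 genes with a promoter in the table and 27.8% of the other replication pathway genes described at the end. The pentamer CCAAT, known from NF-Y sites, was in 23 of 38 members (60.5%), against 39.7% of genes and 56.9% of the other pathway genes. GGAATG, a core letter string of TEAD sites, was in 6 of 38 members (15.8%), against 16.7% of genes and 15.3% of the other pathway genes. A letter match is a description and not a binding site. The windows below are those of the members described by library that have a match upstream of the start, shown as examples of these letters in their context. Capitals mark the match, and each sequence runs 5′ to 3′ on the strand of the gene.
RFC3, chr13:33818064-33818131, plus strand: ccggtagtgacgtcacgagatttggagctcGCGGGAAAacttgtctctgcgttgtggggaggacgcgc
CDT1, chr16:88803724-88803788, plus strand: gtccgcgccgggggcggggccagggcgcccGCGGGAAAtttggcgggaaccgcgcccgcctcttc
PCNA, chr20:5126644-5126711, minus strand: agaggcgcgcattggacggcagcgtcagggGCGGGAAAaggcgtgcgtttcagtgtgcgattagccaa
POLA1, chrX:24693751-24693818, plus strand: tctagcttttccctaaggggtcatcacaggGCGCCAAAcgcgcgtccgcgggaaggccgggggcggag
POLA2, chr11:65261879-65261946, plus strand: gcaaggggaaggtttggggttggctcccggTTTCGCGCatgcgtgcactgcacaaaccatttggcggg

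GCGGGAAA is the reverse complement of TTTCCCGC, and GCGCCAAA of TTTGGCGC. The match begins 55 bases before the start in RFC3, 35 in CDT1, 59 in PCNA, 137 in POLA1 and 53 in POLA2. RFC3, CDT1 and PCNA hold the same 8 letters, and POLA1 another of the 4 strings.

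Origin recognition. The 6 ORC genes encode the complex that marks origins. Their summed level was 159 ± 3.85 scaled TPM in HA-TAZ and 160 ± 2.47 in control libraries (SD, n = 3 each), with overlap. With protein-coding scaling it was lower without overlap, at 155 ± 3.05 and 164 ± 2.62 (SD, n = 3 each). With TPM as deposited it was also lower without overlap (log2 ratio −0.31, beside −0.27 for all genes). ORC6, whose product is the subunit most loosely bound to the core complex, had the highest level of the 6. It was at 46.0, 48.9 and 45.7 scaled TPM in HA-TAZ 1, 2 and 3 and at 50.9, 52.7 and 48.6 in control a, b and c. HA-TAZ 2 lay inside the control range, and the other HA-TAZ libraries lay below it. On the log2 scale the difference was −0.11 (SE 0.05, limma adjusted p = 0.199), and −0.19 with protein-coding scaling (limma adjusted p = 0.0381). With protein-coding transcripts only it turned to 0.24 (limma adjusted p = 0.0599). ORC1, which is made around S phase entry, had the lowest level of all 44 members, with a mean of 5.53 TPM. ORC5 (log2 fold change 0.14) and ORC1 (0.11) were higher without overlap on the scaled values, but neither passed the test (limma adjusted p = 0.128 and 0.328).

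Helicase loading. CDC6 and CDT1 bring the MCM ring to the origin complex, and CDT1 is destroyed once S phase begins. CDT1 was at 24.8, 21.4 and 24.3 scaled TPM in HA-TAZ 1, 2 and 3 and at 15.1, 18.3 and 20.04 in control a, b and c. All HA-TAZ libraries were above all controls, and control a was the lowest of the 6. Its log2 fold change of 0.39 (SE 0.12) was the largest of the 44 and did not pass the test (limma adjusted p = 0.0924). With protein-coding scaling it was 0.32 and passed (limma adjusted p = 0.0493), and with protein-coding transcripts only it was 0.18 and did not (limma adjusted p = 0.246). CDC6 went the other way by less: it was at 51.3, 50.8 and 51.4 scaled TPM in HA-TAZ 1, 2 and 3 and at 54.4, 56.3 and 49.7 in control a, b and c. Control c was the lowest of all 6, so the groups overlapped. The log2 fold change of CDC6 was −0.06 (SE 0.06, limma adjusted p = 0.504).

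The MCM2-7 helicase. The 6 MCM proteins form a ring with 1 copy of each. Their RNA levels, as gene sums over all transcript types, were unequal. Mean levels were 128 TPM for MCM4 and 120 for MCM7, the highest, and 17.8 for MCM6, the lowest. Protein-coding transcripts held 41.4% of the typed TPM of MCM4 in HA-TAZ and 32.0% in control libraries. They held 48.8% and 43.4% for MCM7, but 92.8% and 91.4% for MCM3. The order of levels may thus differ for protein-coding RNA. The summed level of the 6 genes was 442 ± 23.4 scaled TPM in HA-TAZ and 427 ± 19.6 in control libraries (SD, n = 3 each), with overlap. MCM4 was at 122, 129 and 97.4 scaled TPM in HA-TAZ 1, 2 and 3 and at 133, 144 and 123 in control a, b and c. HA-TAZ 3 was the lowest of the 6, and HA-TAZ 2 lay inside the control range. The log2 fold change of MCM4 was −0.20 (SE 0.12, limma adjusted p = 0.296). MCM5 was at 35.6, 35.6 and 35.3 scaled TPM in HA-TAZ 1, 2 and 3 and at 25.1, 28.5 and 32.7 in control a, b and c. The HA-TAZ libraries were nearly equal and above every control, while the controls were spread. Its log2 fold change was 0.30 (SE 0.10) and did not pass the test (limma adjusted p = 0.102). MCM7 (0.22) and MCM2 (0.16) were also higher without overlap, MCM3 (0.02) and MCM6 (−0.04) overlapped, and none of these 4 passed.

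Shares within a complex do not depend on the scaling of libraries. Of the summed MCM2-7 level, MCM7 made up 29.1 ± 1.3% in HA-TAZ and 25.8 ± 0.60% in control libraries, and MCM4 26.2 ± 2.50% and 31.2 ± 1.2% (SD, n = 3 each). The first was higher and the second lower without overlap. MCM4 had the largest share of this summed RNA level in every control library, and MCM7 in HA-TAZ 1 and HA-TAZ 3. In the origin recognition complex ORC5 made up 19.9 ± 0.323% and 17.9 ± 0.780%, and ORC6 29.5 ± 0.702% and 31.8 ± 0.807% in HA-TAZ and control libraries (SD, n = 3 each). ORC5 was higher and ORC6 lower without overlap. MCM2 and ORC1 also had higher shares without overlap. These shares are of gene sums over all transcript types. With protein-coding transcripts only, the log2 fold change was 0.0067 for MCM4, 0.40 for MCM7, 0.24 for ORC6 and 0.10 for ORC5. How often such shares separate for other genes was not tested.

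Helicase activation. CDC45 and the 4 GINS proteins complete the active helicase, and MCM10 helps it to start. None of the 6 genes passed the test or separated the groups on the scaled values. Log2 fold changes ran from −0.11 for GINS1 to 0.22 for CDC45. GINS1, the highest of them, was at 27.9, 29.6 and 27.7 scaled TPM in HA-TAZ 1, 2 and 3 and at 34.4, 29.9 and 28.3 in control a, b and c. The HA-TAZ libraries were close to each other, and control a stood above the other controls. On the log2 scale the difference was −0.11 (SE 0.08, limma adjusted p = 0.386).

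Polymerase alpha and primase. POLA1, the catalytic subunit that extends the RNA primer, had the lowest fold change of the 44. It was at 17.7, 19.1 and 17.3 scaled TPM in HA-TAZ 1, 2 and 3 and at 21.1, 21.7 and 22.5 in control a, b and c. Every HA-TAZ library was below every control. The means were 18.0 ± 0.931 and 21.8 ± 0.661 scaled TPM (SD, n = 3 each). This difference of −0.26 on the log2 scale (SE 0.06) missed the threshold by a small margin (limma adjusted p = 0.053). POLA1 was lower past the threshold with TPM as deposited (−0.55, beside −0.27 for all genes) and with protein-coding scaling (−0.33). It also passed as lower over genes of at least 5 TPM (−0.31) and with protein-coding transcripts only (−0.33).

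POLA2, the regulatory subunit of the same complex, was at 40.6, 36.8 and 35.3 scaled TPM in HA-TAZ 1, 2 and 3 and at 36.1, 34.8 and 34.6 in control a, b and c. The groups overlapped, and the log2 fold change was 0.09 (SE 0.06, limma adjusted p = 0.374). POLA1 made up 17.6 ± 0.734% of the summed level of the 4 genes in HA-TAZ and 20.7 ± 0.415% in control libraries (SD, n = 3 each), without overlap, while the shares of POLA2 and of the primase genes PRIM1 and PRIM2 overlapped. PRIM1 (0.08) and PRIM2 (−0.16) did not pass the test on the scaled values.

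Polymerases delta and epsilon. POLD2, an accessory subunit that stabilises polymerase delta, was at 127, 115 and 117 scaled TPM in HA-TAZ 1, 2 and 3 and at 90.9, 105 and 108 in control a, b and c. All HA-TAZ libraries were above all controls, with control a the lowest. The log2 fold change was 0.24 (SE 0.08, limma adjusted p = 0.114). POLD1, the catalytic subunit (0.22), was also higher without overlap, whereas POLD3 (−0.12) and POLE2 (−0.21), accessory subunits of delta and epsilon, were lower without overlap. None of the 3 passed the test on the scaled values. POLE2 passed as lower with protein-coding scaling (−0.28, limma adjusted p = 0.0196). With protein-coding transcripts only, POLE2 was at −0.10 and did not pass (limma adjusted p = 0.363). Within the 5 genes, POLD2 made up 45.7 ± 0.696% in HA-TAZ and 41.0 ± 2.56% in control libraries, and POLE2 12.1 ± 1.38% and 14.9 ± 0.642% (SD, n = 3 each), both without overlap. Both shares are of gene sums over all transcript types. The catalytic subunit POLE overlapped, at −0.05 on the log2 scale.

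The sliding clamp and its loader. RFC3 was at 14.2, 14.8 and 13.4 scaled TPM in HA-TAZ 1, 2 and 3 and at 10.9, 11.6 and 11.1 in control a, b and c. All HA-TAZ libraries were above all controls, and both groups were tight. The means were 14.1 ± 0.703 and 11.2 ± 0.359 scaled TPM (SD, n = 3 each), and the log2 fold change was 0.31 (SE 0.06, limma adjusted p = 0.0444). The call was lost in each fit that left out 1 library (limma adjusted p = 0.0852 to 0.136), and with TPM as deposited the difference was 0.03, beside −0.27 for all genes (limma adjusted p = 0.824).

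RFC1, the large subunit of the same loader, lay in the other direction. It was at 55.0, 65.5 and 55.0 scaled TPM in HA-TAZ 1, 2 and 3 and at 78.9, 69.9 and 60.7 in control a, b and c. HA-TAZ 2 lay inside the control range. The log2 fold change was −0.25 (SE 0.12, limma adjusted p = 0.21). Protein-coding transcripts held 41.3% of typed RFC1 TPM in HA-TAZ and 33.1% in control libraries. With protein-coding transcripts only, RFC1 was at −0.07 (limma adjusted p = 0.398) and RFC3 at 0.17 (limma adjusted p = 0.0694). Within the loader, with RFC2 summed over its IDs, RFC3 made up 6.87 ± 0.0751% in HA-TAZ and 5.44 ± 0.506% in control libraries, and RFC1 28.4 ± 1.60% and 33.7 ± 1.61% (SD, n = 3 each). Both shares were without overlap, the first higher and the second lower. PCNA, the clamp itself and the member with the second highest level, was at 150, 145 and 133 scaled TPM in HA-TAZ 1, 2 and 3 and at 122, 135 and 125 in control a, b and c. HA-TAZ 3 lay below control b, so the groups overlapped. Its log2 fold change was 0.16 (SE 0.06, limma adjusted p = 0.158). RFC2 (0.16), RFC5 (0.06) and RFC4 (0.03) did not pass.

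Okazaki fragments and replication protein A. FEN1, the nuclease that trims flaps on the lagging strand, was at 39.5, 36.0 and 39.6 scaled TPM in HA-TAZ 1, 2 and 3 and at 29.99, 34.2 and 33.3 in control a, b and c. The HA-TAZ libraries were above the controls, by 0.23 on the log2 scale (SE 0.07, limma adjusted p = 0.0917). The ligase LIG1 overlapped (−0.09). FEN1 shares exon sequence with FADS2 on its own strand in GENCODE release 29, so its reads may be split. The same holds, with other genes, for RRM2, POLA2, POLD1, POLD3 and PRIM1. RPA2, the middle subunit of replication protein A, was at 42.8, 43.3 and 40.3 scaled TPM in HA-TAZ 1, 2 and 3 and at 35.6, 36.7 and 40.2 in control a, b and c. The lowest HA-TAZ library and control c nearly met. The log2 fold change of RPA2 was 0.17 (SE 0.06, limma adjusted p = 0.136), RPA1 and RPA3 had 0.14 and 0.16, and none of the 3 passed.

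Deoxynucleotide synthesis. RRM2, the small subunit of ribonucleotide reductase and the most abundant member by TPM, was at 185, 179 and 170 scaled TPM in HA-TAZ 1, 2 and 3 and at 143, 174 and 155 in control a, b and c. Control b lay inside the HA-TAZ range. On the log2 scale the difference was 0.18 (SE 0.08, limma adjusted p = 0.188). RRM1 (0.16), TK1 (0.11) and TYMS (0.10) were higher without overlap on the scaled values, and none passed. The sum of the 4 genes was 376 ± 10.9 scaled TPM in HA-TAZ and 339 ± 17.4 in control libraries (SD, n = 3 each), without overlap. The log2 ratio of this sum on the scaled values was 0.15, beside a median of 0.06 for protein-coding genes. Relative to the median of all genes of each fit, it was 0.18 with scaled TPM, 0.12 with TPM as deposited and 0.08 with protein-coding scaling. That median is over log2 fold changes of single genes, and in the last fit over protein-coding genes only. With TPM as deposited and with protein-coding scaling the groups overlapped for this sum. For the sum of replication protein A the relative ratios were 0.19, 0.13 and 0.09 with scaled TPM, TPM as deposited and protein-coding scaling. That sum and the sum of polymerases delta and epsilon were also higher without overlap on the scaled values. With protein-coding scaling they overlapped, and with TPM as deposited they were lower without overlap. The sums of origin recognition and of polymerase alpha with primase overlapped on the scaled values. With protein-coding scaling and with TPM as deposited both were lower without overlap.

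**Figure D3:**
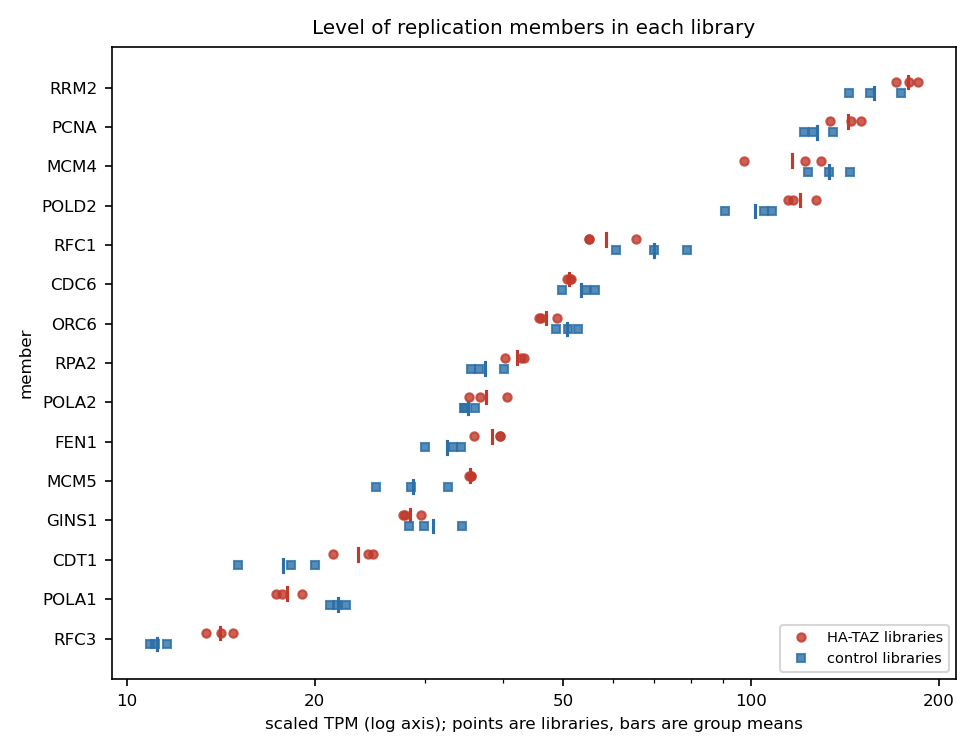
Scaled TPM (log axis) of the 15 members given by library; circles are the 3 HA-TAZ libraries, squares the 3 controls and bars the group means. RFC3 and CDT1 show HA-TAZ above control without overlap, POLA1 shows HA-TAZ below control, and members such as RFC1, ORC6 and PCNA overlap.

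The transcript makeup of the members also differed between the groups. GENCODE release 29 gave each transcript a type, and shares are over TPM in transcripts with a type. Protein-coding transcripts held 68.0 ± 0.453% of the summed member TPM in HA-TAZ and 64.2 ± 0.785% in control libraries (SD, n = 3 each), without overlap. Transcripts of the type processed transcript held 8.11 ± 0.534% and 9.92 ± 0.670%, and those with a retained intron 20.4 ± 0.199% and 21.5 ± 0.414%, both lower without overlap. Those of the type nonsense-mediated decay held 3.45 ± 0.337% and 4.41 ± 0.504%, also lower without overlap. The same directions were seen over all protein-coding genes tested, where protein-coding transcripts held 80.2 ± 0.392% and 77.9 ± 0.322% (SD, n = 3 each). There the nonsense-mediated decay type differed less, at 3.99% and 4.04%. Of the 38 members with transcripts of several types, 9 had a higher protein-coding share in every HA-TAZ library than in any control (23.7%, against 24.8% of 9678 protein-coding genes). A lower share without overlap was found for 2 members (5.26%), against 3.27%. The median difference was 3.03 percentage points over members and 2.41 over the other set. These member counts and this median were near those of protein-coding genes in general.

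GINS3, ORC6, TYMS, MCM4, RFC1, POLE, MCM7, ORC5 and RFC5 were the 9 with a higher share. GINS3 had the largest shift, at 57.2%, 51.8% and 48.4% of its TPM in protein-coding transcripts in HA-TAZ 1, 2 and 3 and 32.7%, 43.0% and 37.0% in control a, b and c. MCM4 held 40.4%, 36.5% and 47.4% in HA-TAZ and 31.5%, 29.5% and 34.9% in control libraries. Most of the RNA assigned to MCM4 was thus of other types in every library. The 2 with a lower share were CDT1, at 82.2%, 82.9% and 84.9% in HA-TAZ and 85.7%, 91.3% and 85.6% in control libraries, and PRIM2. PRIM2 had 55.8% of its TPM in transcripts without a type, and GINS1 43.1%, so their shares cover only a part of the gene.

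**Figure D4:**
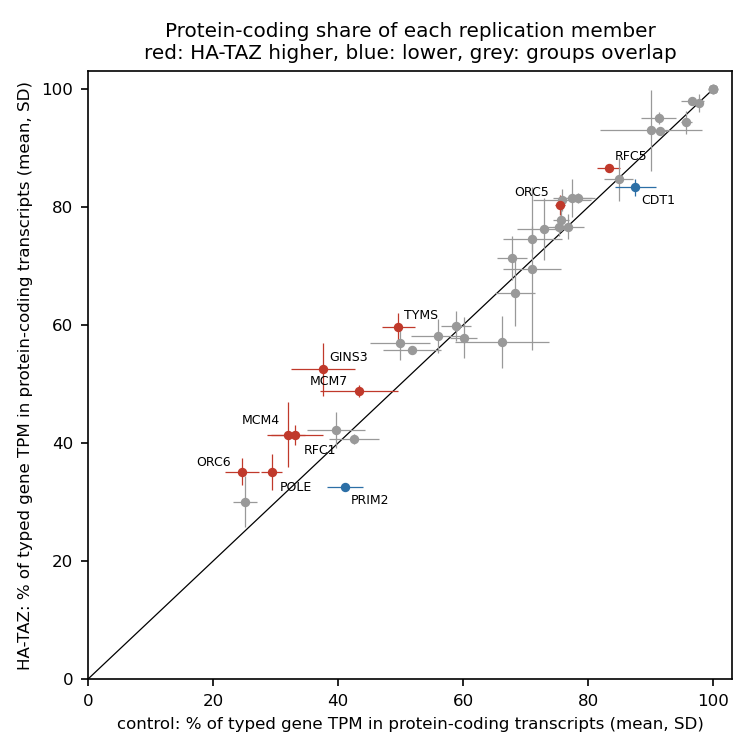
Share of each member's typed TPM in protein-coding transcripts, control on the x axis and HA-TAZ on the y axis, as group means with SD over 3 libraries. The 9 members in red lie above the diagonal without overlap of libraries, CDT1 and PRIM2 in blue lie below it, and 6 members sit at 100% in both groups.

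ORC6 showed 2 transcripts that moved in opposite directions. The protein-coding ENST00000219097.2 had 12.7, 12.9 and 12.7 TPM in HA-TAZ 1, 2 and 3, and 8.74, 11.7 and 10.8 TPM in control a, b and c. ENST00000569239.1, which has a retained intron, had 11.5, 14.8 and 12.5 TPM with HA-TAZ and 27.2, 20.6 and 18.6 TPM without it. The first was higher and the second lower in every HA-TAZ library, and this held with TPM as deposited, where the gene sum was lower. As a share of the gene, the coding transcript took 31.8%, 27.3% and 31.2% in HA-TAZ and 14.2%, 20.4% and 20.9% in control libraries. The retained-intron transcript took 28.8%, 31.4% and 30.7% in HA-TAZ and 44.2%, 35.8% and 36.1% in control libraries. The authors' deposited table gave the coding transcript a natural log effect of 0.435 (SE 0.121, q-value 0.011) and the retained-intron transcript one of −0.303 (SE 0.0909, q-value 0.0215). In limma neither passed (Benjamini-Hochberg adjusted p = 0.105 and 0.108).

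**Figure D5:**
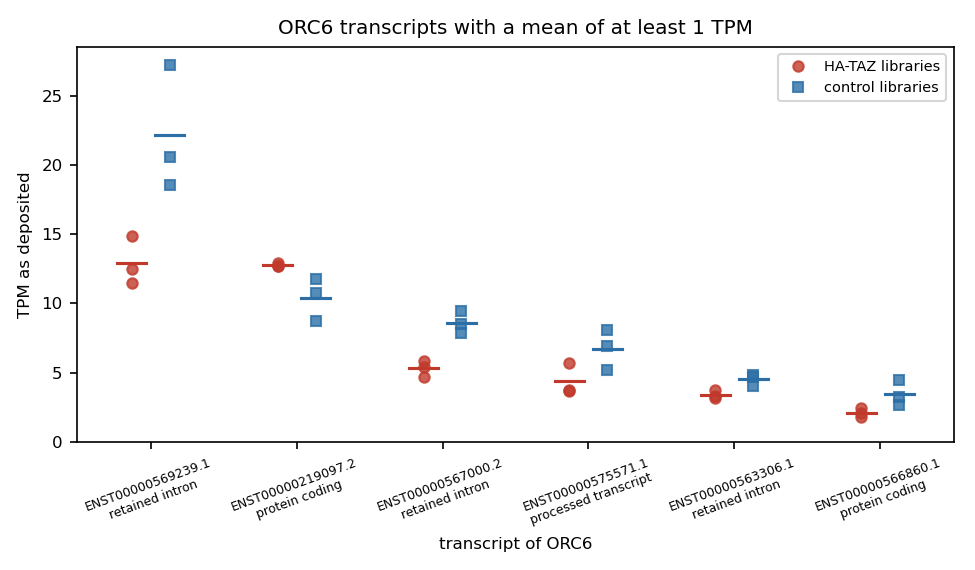
TPM as deposited of the ORC6 transcripts with a mean of at least 1 TPM; circles are HA-TAZ libraries, squares controls and bars group means. The coding ENST00000219097.2 sits higher in HA-TAZ (12.7 to 12.9 TPM against 8.74 to 11.7) and the retained-intron ENST00000569239.1 lower (11.5 to 14.8 against 18.6 to 27.2).

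The members had 404 transcripts, of which 361 had statistics in the authors' deposited table. A q-value under 0.05 was listed there for 19 of them, 17 higher and 2 lower, in 17 genes. That is 5.26% of member transcripts against 5.68% of all transcripts with statistics (4.08% higher and 1.60% lower). In limma 0 of 259 member transcripts tested passed, against 0.564% of all transcripts. Unadjusted p-values under 0.05 numbered 52, or 20.1% against 24.3%, and the lowest adjusted p-value was 0.0595 (limma, Benjamini-Hochberg). Among the 18 with a mean of at least 5 TPM, 15 of the 16 that were higher are protein coding.

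Of the helicase transcripts, MCM2 ENST00000265056.7 had an effect of 0.276 in the authors' deposited table (q-value 3.34e-05), and MCM7 ENST00000303887.5 one of 0.392 (q-value 0.00932). MCM7 also had a higher retained-intron transcript, ENST00000489841.1, at 0.319 (q-value 1.27e-05), so both of its main forms were higher. MCM10 ENST00000378714.3 (0.315), MCM3 ENST00000596288.1 (0.562), MCM5 ENST00000382011.5 (0.429) and GINS3 ENST00000318129.5 (0.351) were higher in the authors' deposited table as well. For nucleotide synthesis, that table listed TYMS ENST00000323274.10 at 0.302 (q-value 6.05e-05) and RRM1 ENST00000300738.5 at 0.214 (q-value 0.00284). At the fork it listed FEN1 ENST00000305885.2 (0.188), POLE ENST00000320574.5 (0.18), POLD2 ENST00000406581.2 (0.578), RPA2 ENST00000373912.3 (0.185) and RFC3 ENST00000380071.3 (0.224), and at the origin ORC5 ENST00000297431.4 (0.213). ORC4 ENST00000392857.5 was lower (−0.272, q-value 0.000894), with means of 4.56 ± 0.452 TPM under HA-TAZ and 7.52 ± 0.784 TPM in controls (SD, n = 3 each). These effects rest on the authors' own scaling: with TPM as deposited, FEN1 ENST00000305885.2 had means of 33.0 ± 0.559 TPM under HA-TAZ and 34.3 ± 1.32 TPM in controls (SD, n = 3 each). TYMS, MCM7 and ORC4 are among the 16 members whose exons overlap a gene on the opposite strand, and whether the counting used the strand is not stated.

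The wider replication pathway was followed through 85 further genes, of which 84 entered the test. On the scaled values 9 were higher and 1 lower (limma, Benjamini-Hochberg), 11.9% of those tested against 7.29% of all genes and 9.68% of protein-coding genes, and their median log2 fold change was 0.10. With TPM as deposited 1 was higher and 12 lower (15.5% against 14.7% of all genes), and with protein-coding scaling 12 were higher and 6 lower (21.7% against 23.5%), both shares near the background. When 1 library was left out, whichever it was, 0 to 3 of these genes passed, and 0 passed with limma without trend. GUK1, guanylate kinase in the supply of GTP and dGTP, rose from 76.4 ± 8.91 to 113 ± 5.63 scaled TPM (SD, n = 3 each), a difference of 0.56 on the log2 scale (SE 0.09, limma adjusted p = 0.0343), and alone of the 10 it was also called higher with TPM as deposited.

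Among accessory polymerase subunits, nucleases and topoisomerases 3 of 12 rose: POLD4, a small subunit of polymerase delta (0.40), RNASEH2A, the catalytic subunit of the RNase that removes ribonucleotides from DNA (0.33), and the topoisomerase TOP1 (0.30). At chromatin the histone chaperone ASF1A (0.38) and the FACT subunit SSRP1 (0.21) rose, 2 of 13. The MCM-binding protein MCMBP (0.25) was the only 1 of 20 for origin firing and fork protection. SSRP1 and MCMBP were at −0.09 and −0.05 with TPM as deposited, beside −0.27 for all genes. In licensing and S phase kinases CDC25A, the phosphatase that activates CDK2, rose (0.37) and SKP2, the ubiquitin ligase subunit that recognises p27, fell (−0.32), from 20.9 ± 1.02 to 16.6 ± 0.716 scaled TPM (SD, n = 3 each). SKP2 was lower under each of the 3 scalings.

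Of the E2F, DP and pocket protein genes 1 of 12 tested rose, E2F4 (0.29). E2F1, the activator of S phase genes, had a log2 fold change of 0.36 and CCNE1, cyclin E1, of 0.38 without passing (limma adjusted p = 0.0678 and 0.0541). The pocket protein genes RBL1 (−0.33) and RBL2 (−0.19) were lower without overlap on the scaled values and did not pass (limma adjusted p = 0.119 and 0.06). RB1, the pocket protein that holds E2F1 in check, was below the filter in both groups, with 0.426, 0.181 and 0.469 TPM in HA-TAZ 1, 2 and 3 and 0.480, 0.214 and 0.296 TPM in control a, b and c. The remaining genes with large differences were POLE4 (0.46), CHTF18 (0.40), TOP2B (−0.22) and DNMT1 (−0.18), none past the threshold on the scaled values.

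Sets of related processes were read in the same way. Of 22 mitosis genes 3 were higher, CCNB1 (0.27), BUB1 (0.30) and CDC20 (0.28), which is 13.6% against 7.29% of all genes and 9.68% of protein-coding genes, with a median of −0.01 over the set. With TPM as deposited 0 mitosis genes were higher and 3 lower (13.6% against 14.7% of all genes). With protein-coding scaling 3 were higher and 2 lower (22.7% against 23.5%), so both shares were near the background. Of 16 genes for homologous recombination and the Fanconi pathway 0 passed on the scaled values (limma, Benjamini-Hochberg), against 7.29% of all genes, with a median of −0.02. An unadjusted p-value under 0.05 (limma) was found for 2, or 12.5% against 30.7% of all genes. With TPM as deposited 0 were higher and 3 lower (18.8% against 14.7% of all genes). With protein-coding scaling 0 were higher and 2 lower (12.5% against 23.5%). The difference between these sets and the 44 members was not tested.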

How the data were processed

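Strand-specific total RNA of 6 libraries was depleted of ribosomal RNA and sequenced from both ends, per the labels' protocols. The submitters' processing notes name kallisto 0.46.0, sleuth 0.30.0 and GRCh37. The authors deposited TPM per transcript (215170 transcripts), which hold no read depth. In the authors' deposited table, effects are on a natural log scale, with p-values and q-values from a Wald test. TPM was summed per gene ID with that table's pairing, divided by median-of-ratios factors, and tested as log2(scaled TPM + 1) with limma 3.58.1 (intensity trend, two-sided, Benjamini-Hochberg over the 22651 genes that averaged at least 1 TPM) in R 4.3.3. Intervals are at 95%. Exact permutation of 3 against 3 libraries cannot go below p = 0.1. The fit was tested on simulated data. GENCODE release 29 gave types to 84.7% of transcripts and was used for exon overlaps: 6 members overlap a gene on their own strand and 16 on the opposite one. No coordinates come from the deposited files. Members and lists were chosen with earlier results of these data known. Values by library are given for called members, the 6 largest uncalled and the highest of each role; of pathway genes, those called and the 4 largest uncalled in each direction; transcripts with an authors' q-value under 0.05 and at least 5 TPM. Other scalings, pseudocounts of 0.1 and 5, filters, protein-coding transcripts only and each library left out were tried. Other steps used Python 3.11.15 with pandas 2.3.3, numpy 2.4.6 and, for figures, matplotlib 3.10.9.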

Additional observations from a re-analysis of the deposited data

How the results depend on the processing

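The sign of small differences moved with the median of all genes, which was −0.03 with the settings of the report, −0.27 with TPM as deposited and −0.0047 over protein-coding genes only, and the counts of calls followed the filter and the number of libraries; the cause was not tested. Genes called over the whole table numbered 1652 with the settings of the report, 3329 with TPM as deposited, 2746 over protein-coding genes only, 697 with no filter on level, 758 with limma without trend and 118 to 470 when 1 library was left out. Members called numbered 1, then 6, 5, 0 and 0 in the same order, 2 with a mean TPM of at least 5, 6 with protein-coding transcripts only, and 0 to 0 when 1 library was left out. Pathway genes called numbered 10, then 18 over protein-coding genes only, 2 with no filter, 0 without trend and 0 to 3 when 1 library was left out. Member transcripts called stayed at 0 when 1 library was left out (0 to 0). Transcripts of members in the authors' deposited table numbered 19 at a q-value under 0.05 and 8 under 0.01. The member median of 0.08 was −0.21 with TPM as deposited, 0.0098 over protein-coding genes only, 0.027 with a mean TPM of at least 5, 0.0031 with protein-coding transcripts only and 0.05 to 0.11 when 1 library was left out. WWTR1 ranged from 6.71 to 6.85 when 1 library was left out.

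With TPM as deposited the log2 ratio of the summed level was −0.25 for the MCM2-7 helicase, −0.33 for helicase activation, −0.24 for the loading factors, −0.31 for origin recognition, −0.25 for the clamp and loader, −0.34 for polymerase alpha with primase, −0.22 for polymerases delta and epsilon, −0.19 for Okazaki fragment maturation, −0.14 for replication protein A and −0.15 for deoxynucleotide synthesis. Over protein-coding genes only it was −0.026 for the MCM2-7 helicase, −0.024 for the clamp and loader, 0.035 for Okazaki fragment maturation, 0.086 for replication protein A, −0.10 for activation, −0.0077 for loading, −0.082 for origin recognition, −0.11 for polymerase alpha, 0.010 for polymerases delta and epsilon and 0.076 for deoxynucleotide synthesis. With TPM as deposited these values were below 0 but above that median: POLD2 (−0.059), FEN1 (−0.060), RRM2 (−0.12), POLA2 (−0.20), RPA2 (−0.13), PCNA (−0.14), MCMBP (−0.049), SSRP1 (−0.092) and E2F4 (−0.0064). With protein-coding transcripts only, signs turned for MCM4 (0.0067), RRM2 (−0.029), ORC6 (0.24), POLA2 (−0.078) and POLE4 (−0.27). Restriction to protein-coding transcripts and the q-value of 0.01 were chosen after seeing the data. Pseudocounts of 0.1 and 5 changed no side of the threshold for the 33 genes named by the rule. No paired analysis was possible because the control columns carry a name that is in no label and cannot be tied to a numbered sample. Sequencing depth is unknown, so no counting error can be given for low members such as ORC1.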
